A study of Caenorhabditis elegans with 2 samples.

Results

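Chromosome X carried 998 of the 4944 peaks in the authors' thresholded list of binding sites for NHR-23, a ROR-type nuclear receptor that worms need for molting. The peaks were chosen by their chromosome alone and fell into 995 distinct intervals. They come from chromatin immunoprecipitation and sequencing (ChIP-seq) of whole L3 larvae of Caenorhabditis elegans, males and females pooled, in 2 biological replicates that form 1 group. All worms were of strain OP43, whose genotype per the labels is unc-119(ed3) III; wgIs43, with wgIs43 an insertion that targets nhr-23; the labels describe the immunoprecipitated protein as eGFP-nhr-23 and list the antibody as nhr-23. Both replicates thus come from 1 transgenic strain, no untagged strain or second stage was compared, and a control named in the labels was not used here. The age of the larvae within the stage is given as unknown, and whole animals mix all tissues.

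ROR-type nuclear receptors bind DNA at a hexamer known as the nuclear receptor half-site. In C. elegans, NHR-23 acts in the epidermis, where its activity rises and falls with each larval stage and drives genes of the cuticle and of the precuticle matrix, which is laid down before it. The X chromosome has its own regulation: in hermaphrodites a dosage compensation complex loads onto both X chromosomes at recruitment sites that hold a GC-rich motif and lowers X expression, and the X is poor in genes of the germ line. The peaks on the other 5 chromosomes, the autosomes, serve here as the comparison, and their range shows how far chromosomes differ among themselves.

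The sequence patterns that recur in the results are shown first. All sequences are from RefSeq's WBcel235 assembly, the same as ce11, on the plus strand, and span 50 bases on either side of the summit, the deposited position of highest signal in a peak. The first set shows the 7 of the 20 strongest X intervals whose summit lay within 50 bp of GCGCAGGG, the core of the recruitment motif, which stands in capitals on either strand (CCCTGCGC on the other).

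mom-1 intron, chrX:6296533-6296633: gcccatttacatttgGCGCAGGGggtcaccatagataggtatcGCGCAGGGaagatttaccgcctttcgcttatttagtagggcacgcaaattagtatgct

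distal site upstream of xol-1, chrX:8036349-8036449: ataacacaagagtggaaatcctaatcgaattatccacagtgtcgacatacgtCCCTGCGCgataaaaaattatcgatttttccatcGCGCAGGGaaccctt

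Y41G9A.17 intron, chrX:2997070-2997170: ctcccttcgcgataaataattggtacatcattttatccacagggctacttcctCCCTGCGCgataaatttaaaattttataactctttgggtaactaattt

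nspc-17 promoter, chrX:14525867-14525967: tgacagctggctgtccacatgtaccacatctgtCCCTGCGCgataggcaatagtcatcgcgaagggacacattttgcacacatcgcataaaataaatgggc

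distal site between F20B6.9 and hpk-1, chrX:4209206-4209306: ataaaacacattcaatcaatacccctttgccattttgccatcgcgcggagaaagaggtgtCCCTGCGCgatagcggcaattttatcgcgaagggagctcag

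pks-1 coding sequence, chrX:5429511-5429611: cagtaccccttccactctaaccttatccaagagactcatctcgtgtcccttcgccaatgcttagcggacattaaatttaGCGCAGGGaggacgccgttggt

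distal site between gtr-1 and F25E2.2, chrX:806640-806740: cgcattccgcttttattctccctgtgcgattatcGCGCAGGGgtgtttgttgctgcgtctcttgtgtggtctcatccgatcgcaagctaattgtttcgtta

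The second set shows strong X promoter peaks with a nuclear receptor half-site, AGGTCA or GGGTCA, in capitals on either strand. The peak at lpr-3 was the strongest of its kind, and the window at ppk-3 holds 2 half-sites.

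lpr-3 promoter, chrX:11057230-11057330: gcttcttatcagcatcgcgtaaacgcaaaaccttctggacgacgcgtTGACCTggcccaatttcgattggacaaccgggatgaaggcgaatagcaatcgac

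M03F4.6 promoter, chrX:4969387-4969487: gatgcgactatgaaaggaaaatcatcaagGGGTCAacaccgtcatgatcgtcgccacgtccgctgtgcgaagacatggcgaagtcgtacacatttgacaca

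ppk-3 promoter, chrX:12975787-12975887: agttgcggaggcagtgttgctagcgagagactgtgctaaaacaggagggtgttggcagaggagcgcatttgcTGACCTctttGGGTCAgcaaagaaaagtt

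The third set shows strong X promoter peaks with a GA repeat, GAGAGA or TCTCTC on the other strand, in capitals. This pattern was common at the peaks of all chromosomes.

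rpl-11.2 promoter, chrX:2242945-2243045: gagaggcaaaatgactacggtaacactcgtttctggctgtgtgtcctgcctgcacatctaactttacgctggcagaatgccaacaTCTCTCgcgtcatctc

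nipi-3 promoter, chrX:15607625-15607725: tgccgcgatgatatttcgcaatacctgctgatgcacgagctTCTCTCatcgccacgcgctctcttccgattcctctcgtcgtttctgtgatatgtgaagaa

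The X held a larger share of the peaks than of the genome's length or of its genes. It carried 20.2% of the peaks (exact Clopper-Pearson 95% interval 19.1 to 21.3) on 17.7% of the nuclear genome and with 13.7% of its protein-coding genes. Its density was 56.3 peaks per Mb, against 47.8 on the autosomes together. The autosomes taken singly averaged 49.1 ± 9.69 peaks per Mb (SD, n = 5 chromosomes) and ranged from 36.8 to 60.3, so the X lay within their spread, behind 1 of them. Per 100 protein-coding genes the X had 36.5 peaks, against 24.1 ± 6.04 on the autosomes, whose highest value was 31.5, and so stood above each of the 5. All intervals given here cover counting error only, since the lists carry no read counts and the sequencing depth is unknown.

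The X share of the peaks varied with their strength and was above the X share of the length in the thresholded list and below it among the weakest pooled peaks. Each replicate's own 4944 strongest peaks gave X shares of 20.5% in replicate 1 and 20.1% in replicate 2. The X share was 29% (20.4 to 38.9) among the 100 strongest pooled peaks, 24% among the 100 strongest of replicate 1 and 26% among those of replicate 2. Among the 250 strongest pooled peaks it was 20.8% (15.9 to 26.4), or 52 peaks, and without the 13 X peaks that hold the recruitment core, described later, it was 17.6%. Among the 500 strongest it was 18.8% (15.5 to 22.5), an interval that holds the X share of the length. The 52 peaks are 5.21% of the X peaks, against 5.02% of the autosomal peaks and 5.06% of all thresholded peaks. Below the threshold it was 18.7% down to rank 10000, still above the X share of the length, then 16.6% down to rank 20000 and 14.97% in the last 10000 of the 30000 pooled peaks, both below that share. Over the whole pooled list the X had 0.955 times the density of the autosomes.

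**Figure D1:**
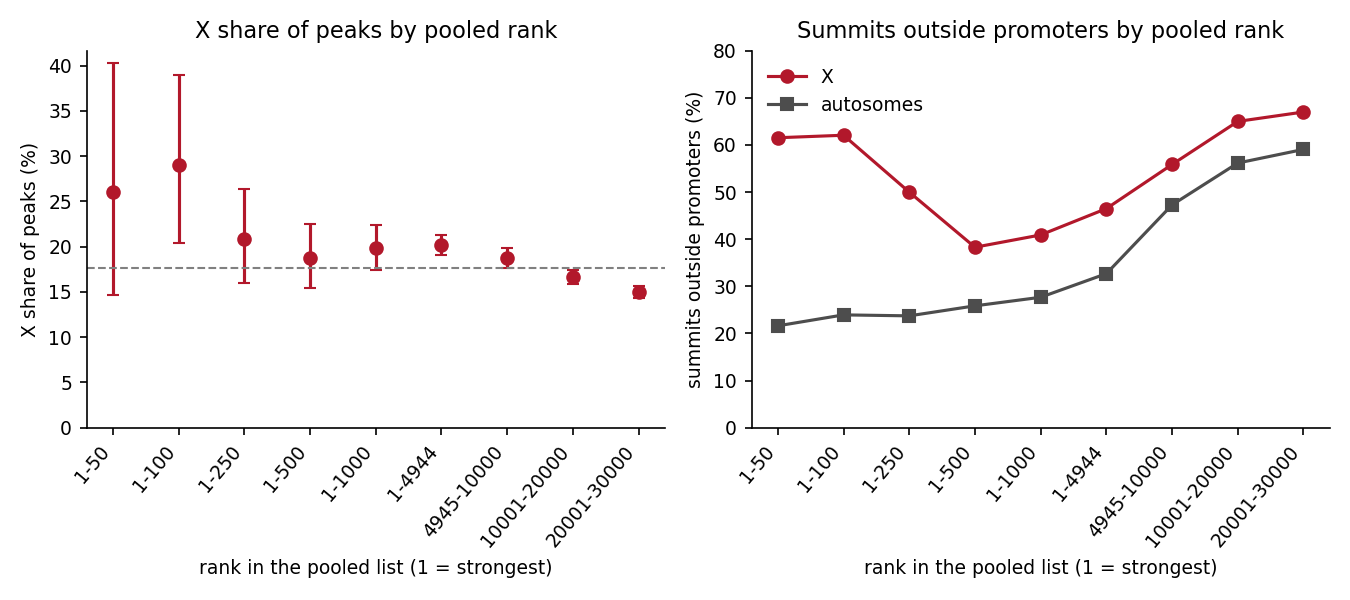
Left, the share of peaks on the X (%) by rank in the pooled list, with exact 95% intervals; the dashed line is the X share of the genome's length, 17.7%. Right, the share of summits outside promoters (%) on the X (red) and on the autosomes (grey); the first 6 rank classes all start at the strongest peak and contain each other, and among the 100 strongest peaks the shares were 62.1% on the X and 23.9% on the autosomes.

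Per Mb, the peaks were spread more evenly along the X than along the autosomes, which crowd theirs into the middle. When each chromosome was divided into 3 parts of equal length, the left part of the X held 281 peaks, the middle part 354 and the right part 363, or 47.6, 59.9 and 61.5 peaks per Mb. The middle part thus held 35.5% of the X peaks (32.5 to 38.5), against 41.8% to 51.8% on the 5 autosomes. The middle share of the X was 34.4% in replicate 1's 4944 strongest peaks and 35.2% in replicate 2's. Genes were spread alike over the X, with 147, 165 and 150 protein-coding genes per Mb in its left, middle and right parts. The peaks per 100 genes were 32.3, 36.3 and 41.1 in that order. The share of summits in promoters was 59.8% in the left part, 52.5% in the middle part and 49.6% in the right part.

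In 20 bins of equal width along the chromosome, the X lay above all 5 autosomes in 6 bins, within their range in 11 and below it in 3. The bins above the range lay between 5% and 20% of the length, between 70% and 75%, and between 80% and 90%. The bin from 80% to 85% had 65.5 peaks per Mb on the X and a mean of 33.1 on the autosomes. The bin from 85% to 90% had 80.1 on the X, the most of any X bin, and a mean of 36.8 on the autosomes. The bins below the range were the first 5% of the length, with 29.3 on the X, and those from 50% to 55% and from 65% to 70%, with 45.1 and 41.8 on the X. Counted by megabase, the X ranged from 28 peaks between 3 and 4 Mb to 82 between 6 and 7 Mb.

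**Figure D2:**
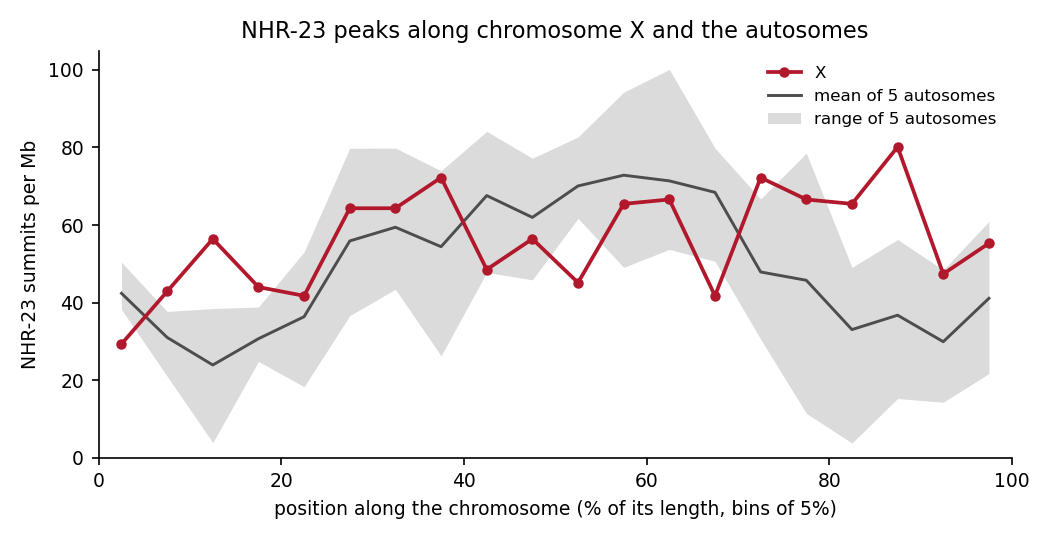
NHR-23 summits per Mb (vertical axis) by position in percent of the chromosome's length (horizontal axis, 20 bins of 5%). The red line is the X, the grey line and band are the mean and range of the 5 autosomes; the X lies above the band in 6 bins, all outside the stretch from 20% to 70% of the length, and below it in 3.

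Neighbouring summits on the X lay a median of 7206 bp apart, against 8313 bp on the autosomes, with single autosomes between 7154 and 9245 bp. The longest stretch without a summit was near the left end, from 59299 to 295937 (236638 bp), and spanned 21 protein-coding genes. Among these were the F-box genes fbxa-16, fbxa-221 and fbxa-222, the SET domain gene set-28, elk-2, chkr-1 and tmed-12. The pooled list held 4 peaks below the threshold there. The longest such stretch on an autosome was 757511 bp.

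The densest 50 kb of the X held 16 summits, against at most 13 to 19 on the autosomes. This window started at 6735766 and covered mdl-1, which encodes a Mad-like transcription factor, the anion transporter gene abts-4, bgal-2, idpp-6 and the potassium channel gene irk-1. Its 16 summits ended at 6758596, with 11 of them nearest to the start of mdl-1 and 5 in introns of abts-4, and the highest signal was 250.8. A second window with 16 summits started at 15340057, at svh-5 and nfki-1, and reached a signal of 136.4.

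The share of summits in promoters was lower on the X than on any autosome. A promoter here runs from 1500 bp upstream to 500 bp downstream of the annotated start of a protein-coding transcript. A summit outside it was assigned to an intron, an exon or distal intergenic sequence. The exon class includes exons of genes that do not code for protein. Promoters held 534 X summits (53.5%, 50.4 to 56.6), against 67.3% on the autosomes together, whose single values ran from 62.3% to 71.9%. Distal sites held 240 X summits (24.0%), against 17.005% on the autosomes (14.3% to 20.2%). Introns held 148 X summits (14.8%), against 10.3% (6.87% to 11.7%). Exons held 76 X summits (7.62%), against 5.40% (4.11% to 7.004%). With promoter windows set apart in this way, each of the 4 X shares was outside the range of the autosomes.

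The X itself is laid out differently. Promoter windows covered 34.0% of the bases of the X and 41.0% of those of the autosomes, and distal sequence covered 26.01% of the X and 17.96% of the autosomes. Set against these base shares, X promoters held 1.57 times their share of bases, and autosomal promoters 1.64 times, with single autosomes between 1.51 and 1.84. For distal sites the ratios were 0.925 on the X and 0.947 on the autosomes (0.812 to 1.08). Both X ratios were thus within the range of the autosomes. For introns the base shares were similar, 20.9% on the X and 21.8% on the autosomes, and the ratios were 0.709 on the X and 0.472 on the autosomes. The X intron ratio was above the highest autosome, 0.6002. This depended on setting promoter windows apart first. By gene annotation alone, introns held 23.1% of the X summits, within the autosomal range of 17.5% to 23.7%. The intron ratio was then 0.772 on the X and 0.771 on chromosome II, the highest autosome. The exon ratio, 0.399 on the X and 0.281 on the autosomes, was also above the highest autosome, 0.361. By annotation alone, coding sequence held 3.01% of the X summits, against 3.27% on the autosomes (2.17% to 4.02%). Exons of non-coding genes held 9.72% of the X summits, against 7.17% on the autosomes (5.17% to 10.2%). Both X shares were thus within the range of the autosomes.

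X summits had a median distance of 927.5 bp to the closest start of a protein-coding gene, against 495 bp on the autosomes and 398 to 659.5 bp on single autosomes. Of the X summits, 67.7% lay upstream of that start, against 73.9% of the autosomal ones. The gap in promoter share depended on which starts were used. With the starts of all annotated genes, RNA genes included, promoters held 74.7% of the X summits, and X minus autosomes came to -4.65 percentage points, against -13.8 points with protein-coding starts alone. For exons X minus autosomes was then 0.456 points, against 2.22 with protein-coding starts alone, and for introns 2.37 against 4.54. Windows at the starts of all genes cover more bases, and these shares are not set against base shares here.

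**Figure D3:**
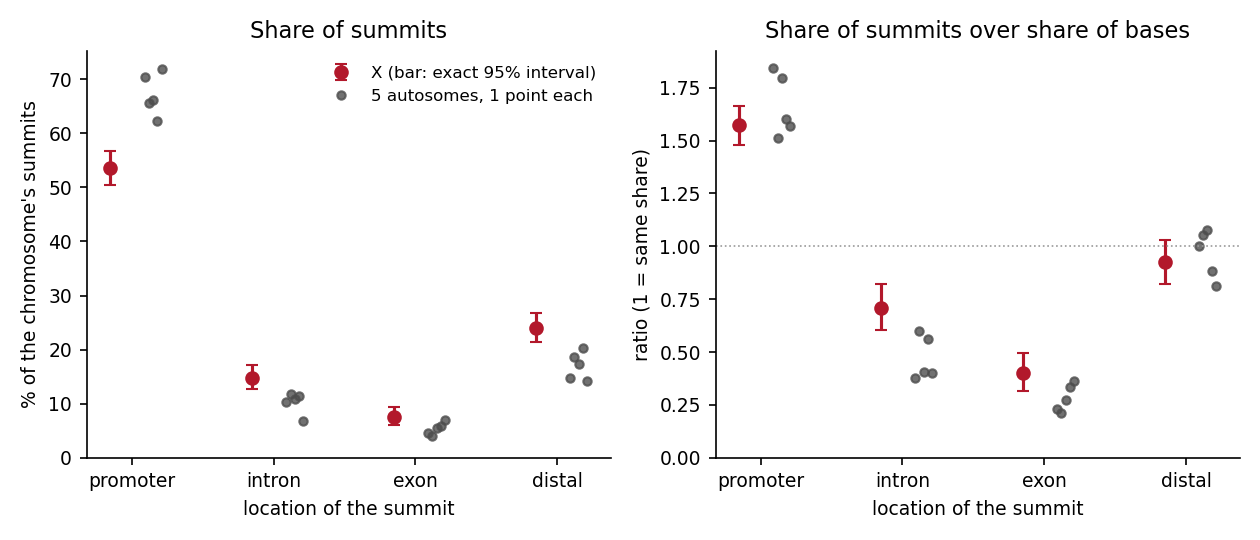
Left, the share of summits (%) in promoters, introns, exons and distal sites; right, that share divided by the share of the chromosome's bases in the same class, where 1 means equal shares. Red points are the X with exact 95% intervals and grey points the 5 autosomes; the X promoter share of 53.5% lies below all 5 autosomes, while its ratio of 1.57 lies among theirs.

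Transfer RNA (tRNA) genes lay near more of the X summits. The X carries 276 annotated tRNA genes and the autosomes together 336. On the X, 65 summits (6.51%, 5.06 to 8.23) lay within 500 bp of a tRNA gene, against 66 (1.67%, 1.30 to 2.12) on the autosomes. Counted per gene, 79 of the 276 X tRNA genes (28.6%) had such a summit, against 75 of the 336 autosomal ones (22.3%). Only 18 of the 65 X summits were in promoters of protein-coding genes, and 23 were distal. Their median signal was 53.8, against 62.6 for the other X peaks. Without the summits at tRNA genes the promoter share was 55.3% on the X and 67.8% on the autosomes, so the difference was of similar size without them. The exon share was then 6.75% on the X and 5.13% on the autosomes. Small nucleolar RNA genes went the other way, with a summit near 2 of 33 on the X and near 93 of 313 on the autosomes. For microRNA genes the counts were 7 of 74 on the X and 35 of 187 on the autosomes.

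The typical X peak was as strong as the typical autosomal peak. The deposited signal, a height that the peak caller assigns to each peak, had a median of 61.5 on the X, with quartiles of 45.3 and 92.3, and a median of 60.03 on the autosomes, with quartiles of 44.1 and 91.0. The median of single autosomes ran from 59.0 to 62.6, so the X lay within their range. The strongest X peak had a signal of 489.2, against 967.1 for the strongest autosomal peak. The weakest X peak in the thresholded list had 34.24, and the first X peak below the threshold 34.20. By location, the median X signal was 65.3 in promoters, 58.0 in introns, 54.6 in exons and 59.2 at distal sites, and the autosomal medians were 63.1, 55.3, 50.8 and 56.3 in the same order. The promoter median of the X was above the highest autosome, 64.5, by less than 1 unit, and the medians of the other 3 classes were within the range of the autosomes.

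Of the X peaks, 964 (96.6%) had their summit inside a peak in both replicates' full lists, 18 in replicate 1's alone and 16 in replicate 2's alone. For the autosomes the share in both was 96.5%. Those lists hold peaks and background together, per the deposited text files, so presence in them is a weak criterion. Over the peaks in both lists, the median X signal was 29.5 in replicate 1 and 35.0 in replicate 2, against autosomal medians of 28.2 and 35.2. The X median was thus slightly above the autosomal one in replicate 1 and slightly below it in replicate 2.

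**Figure D4:**
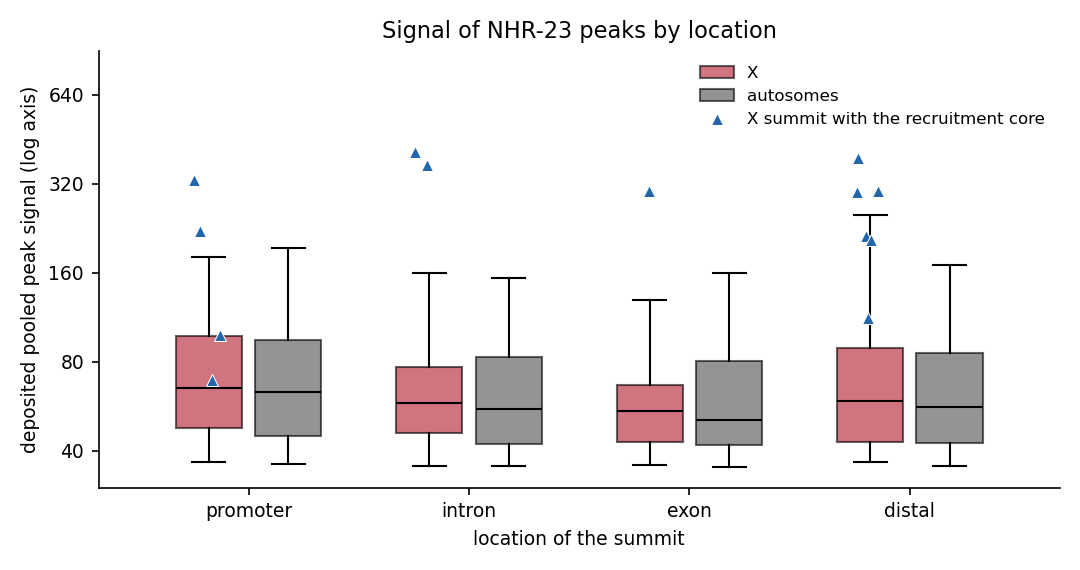
Deposited pooled peak signal (log axis) by location of the summit, X in red and autosomes in grey; boxes are quartiles with the median, whiskers the 5th and 95th percentiles. Blue triangles are the 13 X summits with the recruitment core, 8 of them above the whisker of their class, whereas the X and autosomal medians lie close together in each class.

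The X share of summits outside promoters was higher than the autosomal share at the top of the list and in its lower ranks, most so at the top. Among the 100 strongest peaks, 62.1% of the 29 X summits were outside promoters and 44.8% were distal, against 23.9% and 8.45% of the 71 autosomal summits. Over all thresholded peaks the shares outside promoters were 46.5% on the X and 32.7% on the autosomes. Of the 20 strongest X intervals, 6 had their summit in a promoter, 3 in an intron, 2 in an exon and 9 at distal sites.

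The strongest X peak, which ranked 10 among all peaks, lay 297 bp upstream of serp-1.1 (chrX:15841106-15841446), with a pooled signal of 489.2 and signals of 240.3 in replicate 1 and 250.6 in replicate 2. The next, at rank 11, was distal, 4005 bp downstream of the start of W02H3.3 (chrX:11093853-11094423), with a pooled signal of 457.3 and signals of 221.4 in replicate 1 and 241.2 in replicate 2. At rank 14, a peak lay 298 bp upstream of puf-9 (chrX:5841160-5841444), which encodes an RNA-binding protein of the Pumilio family, with a pooled signal of 439.4 and signals of 211.4 in replicate 1 and 230.8 in replicate 2. In each replicate's own list these peaks ranked 11, 12 and 16, so their order was the same in both.

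The other promoter peaks among the 20 strongest lay at rpl-11.2, nspc-17, lpr-4 and lpr-3. The gene rpl-11.2 encodes a protein of the large ribosomal subunit, and its summit, 377 bp upstream, had a pooled signal of 331.9, with 173.5 in replicate 1 and 159.97 in replicate 2. The genes lpr-3 and lpr-4 encode lipocalins of the precuticle matrix. The summit 144 bp upstream of lpr-4 had a pooled signal of 324.5, with 115.7 in replicate 1 and 210.7 in replicate 2. The summit 121 bp upstream of lpr-3 had a pooled signal of 277.6, with 131.1 in replicate 1 and 149.1 in replicate 2. The replicates were close at lpr-3 and unequal at lpr-4, where replicate 2 was the higher. At nspc-17, the summit lay 736 bp upstream and the pooled signal was 328.1, with 153.5 in replicate 1 and 183.6 in replicate 2.

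Away from promoters, a peak in an intron of mom-1, which acts in Wnt secretion, had a pooled signal of 409.9, with 208.8 in replicate 1 and 206.5 in replicate 2. A distal peak 4914 bp upstream of xol-1, the switch gene of sex determination, had 391.4, with 192.8 in replicate 1 and 198.8 in replicate 2. A peak in an intron of Y41G9A.17 had 371.3, with 186.4 in replicate 1 and 190.1 in replicate 2. At these 3 sites the replicates were close to each other. Further pooled signals were found distal to F55G7.5 at 361.6 and distal to F19H6.5 at 337.7. Distal sites near K02D3.1, ZK899.6, F20B6.9, gtr-1 and F22H10.2 had signals between 278.5 and 305.1. One summit lay in a 3′ UTR of lron-1 at 301.3, with let-4, a gene of the apical matrix, as the nearest start, 1870 bp away. Another lay in coding sequence of pks-1, a polyketide synthase gene, at 301.0; its nearest start, that of C41A3.2, was 15211 bp away. The last of the 14 lay in an intron of the nuclear receptor gene nhr-14 at 280.5. For the mom-1 intron peak the nearest start was that of cest-16, 3359 bp away.

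The core of the dosage compensation recruitment motif was at 7 of the 20 strongest X intervals. The core GCGCAGGG lay within 50 bp of the summit at 13 of 998 X peaks (1.30%, 0.695 to 2.22), against 2 of 3946 autosomal peaks (0.0507%, 0.00614 to 0.183) and 0.303% of all thresholded peaks. Windows of the same width 500 bp to either side held it in 1 of 1996 cases on the X and in 2 of 7892 on the autosomes. Of all windows of that width, 0.0422% held it on the X and 0.0265% on the autosomes. In each replicate's own 4944 strongest peaks, the X share was 1.78% in replicate 1 and 1.71% in replicate 2, against autosomal shares of 0.0254% and 0.0506%.

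Read from the motif, the X was again the higher. The X holds 81 occurrences of the core, of which 27 (33.3%, 23.2 to 44.7) lay inside an NHR-23 peak, against 9 of 233 on the autosomes (3.86%, 1.78 to 7.21). Peaks covered 1.56% of the bases of the X and 1.27% of those of the autosomes. The 27 occurrences lay in 22 of the 995 distinct X intervals. In the 4944 strongest peaks of each replicate the X counts were 31 in replicate 1 and 28 in replicate 2, and the autosomal counts 8 in each. A longer form, the core with TC directly before it, was chosen after the data were seen. It occurred 19 times on the X, and 14 of these (73.7%, 48.8 to 90.9) were inside a peak. The autosomes held 6 occurrences with 0 inside a peak, which at this number allows a share of up to 45.9% (upper exact 95% limit).

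The ratio of the X share to the autosomal share depended on the exact letters. When 1 of the 8 letters was allowed to differ, 7.41% of the X summits and 5.52% of the autosomal summits matched, so the shares were then much closer in ratio, though not in percentage points. Among the 100 strongest peaks this looser form matched 11 of 29 X summits (37.9%) and 6 of 71 autosomal summits (8.45%). Such a match is a string of letters and not a mapped recruitment site, and whether the complex occupied these sites in the larvae was not tested.

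The 13 X peaks with the core were the stronger ones. Their pooled signal had a median of 301.0 and ranged from 69.2 to 409.9, against a median of 60.7 for the 985 X peaks without it, with quartiles of 45.0 and 90.7. In replicate 1 the medians were 151.9 with the core and 29.3 without, and in replicate 2 they were 137.6 with it and 34.6 without. All 13 were present in both replicates' lists, and 10 were among the 250 strongest peaks of the genome. The 2 autosomal peaks with the core had signals of 46.4 and 86.2. The core centre nearest to the summit lay a median of 13.5 bp away, and within 25 bp in 11 of the 13 X peaks. In the mom-1 and xol-1 sequences above the core occurs 2 times.

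**Figure D5:**
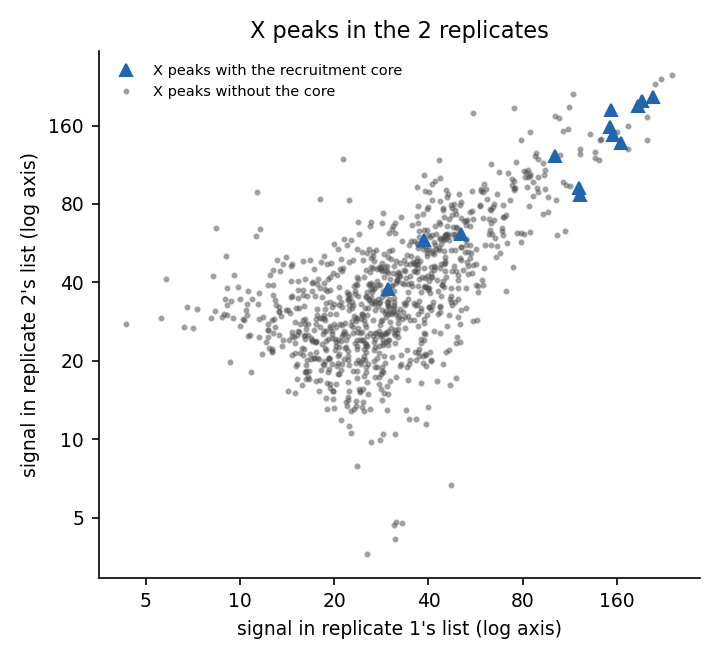
Signal of X peaks in replicate 1's list (horizontal, log axis) against replicate 2's list (vertical, log axis), for peaks found in both. Blue triangles are the 13 peaks with the recruitment core, of which 10 sit at the upper end in both replicates; grey points are the X peaks without it.

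Of these 13 peaks, 6 were distal, 4 in promoters, 2 in introns and 1 in an exon. The 6 that complete the list beyond the 7 shown above lay 625 bp upstream of the insulin-like gene ins-39 (signal 220.6), near T24D8.6 (212.5), 3495 bp upstream of the collagen gene col-185 (206.9), near the clathrin adaptor gene dpy-23 (112.2), at R04E5.9 (98.2) and 72 bp upstream of the adaptor gene apm-3 (69.2). By position, 8 lay in the left part of the X, 3 in the middle part and 2 in the right part, and they lay a median of 939174 bp apart. Without the 13 peaks the X share of the 250 strongest peaks was 17.6%, against 20.8% with them. The X share of all peaks then was 19.98%, and the promoter share of X summits 53.8%, so these 2 values moved little.

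The nuclear receptor half-site was another motif in which X and autosomes differed. It lay within 50 bp of 147 X summits (14.7%, 12.6 to 17.1), against 10.01% of the autosomal summits, with single autosomes between 7.94% and 10.9%. In windows 500 bp away the shares were 4.46% on the X and 4.19% on the autosomes, and the hexamer written backwards gave 5.61% at X summits and 5.42% at autosomal ones. In each replicate's own strongest peaks the shares were 13.3% on the X and 9.36% on the autosomes in replicate 1, and 14.1% and 10.4% in replicate 2.

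The difference lay in promoters. There the half-site was found at 86 of 534 X summits (16.1%, 13.1 to 19.5), against 217 of 2656 autosomal summits (8.17%, 7.16 to 9.28). Single autosomes ranged from 6.55% to 9.57%, all below the X. All windows centred in promoters held it in 4.44% of cases on the X and 3.87% on the autosomes, a gap far smaller than that at the summits. The X promoter share was 15.2% in replicate 1's strongest peaks and 14.7% in replicate 2's, against 8.35% and 8.59% on the autosomes. Outside promoters the shares were 13.1% on the X and 13.8% on the autosomes. At distal sites the X had 11.3% (7.55 to 15.9) and the autosomes 14.6%, so the direction there was opposite, within the counting error of the X.

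The GA repeat was the most frequent of these 3 motifs on both. It was present at 23.7% of the X summits and 27.2% of the autosomal summits, where single autosomes ranged from 22.6% to 31.0%. In promoters the X had 26.97% and the autosomes 25.2%. At distal sites the X had 19.6% (14.8 to 25.2) and the autosomes 32.8%, with single autosomes between 22.7% and 39.04%, so the X lay below each. All distal windows held it in 4.23% of cases on the X and 5.40% on the autosomes. A reordered form of the GA repeat was at 12.1% of the X summits (10.2 to 14.3), against 9.15% of the autosomal ones. Single autosomes ranged from 8.31% to 9.70% for it, so the X lay above each in this control pattern too. In windows 500 bp away its shares were 6.06% on the X and 6.31% on the autosomes. A GATA site, TGATAA, was at 10.02% of the X summits and 9.60% of the autosomal ones, and the E-box CANNTG at 40.2% and 39.5%. A run of 8 T was rarer at summits than nearby, at 3.41% on the X and 4.56% on the autosomes, against about 11.6% in the flanks of both.

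At the level of genes the X did not stand out. A gene was called bound when a summit lay in the promoter window of any of its transcript starts. Such a start can lie inside the gene, as for the signals given below at peb-1, daf-12, elt-3, sma-9 and srv-7. This held for 520 of 2731 protein-coding genes on the X (19.04%, 17.6 to 20.6), against 19.5% on the autosomes and 19.4% of all 19973 protein-coding genes. Single autosomes ran from 13.6% to 27.5%. In the lists below, which were drawn up with earlier results of these data known, the counts are set beside these shares and are descriptions. Neighbouring genes can share a peak.

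Genes of molting and of the precuticle matrix on the X were often bound, at 7 of 9, against 9 of 25 on the autosomes. Beside lpr-3 and lpr-4, the lipocalin gene lpr-5 had a summit 1033 bp upstream, with a pooled signal of 208.8 and signals of 92.6 in replicate 1 and 114.9 in replicate 2. The leucine-rich repeat genes let-4 and sym-1, whose proteins belong to the apical matrix, had promoter signals of 120.6 and 140.4. The patched-related gene ptr-4 had 99.7 and the molting gene mlt-9 had 51.5, with 18.7 in replicate 1 and 37.8 in replicate 2. The members not bound were acn-1, with a summit 886 bp into the gene at 39.02, and the kinase gene nekl-3, whose nearest summit lay 2531 bp upstream at 210.8. The acn-1 summit lay outside every promoter window. The summit near nekl-3 lay in the promoter window of another gene.

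All 3 X collagen genes named for body shape were bound. The summit 261 bp upstream of dpy-7 had a pooled signal of 237.9, with 84.5 in replicate 1 and 150.7 in replicate 2. The summits upstream of dpy-3 and dpy-8 had 131.0 and 113.7. Each of the 3 windows held a half-site. On the autosomes 10 of 18 such genes were bound. Of the col collagens 5 of 27 were bound on the X, close to the share of all X genes, and 27 of 129 on the autosomes. The highest promoter signals among the X members were 74.7 at col-176, 65.7 at col-41, 45.5 at col-172 and 35.6 at col-169. None of the 5 X cuticlin genes was bound, namely cut-5, cutl-3, cutl-11, cutl-21 and cutl-29, against 4 of 30 on the autosomes. Of 9 genes for collagen folding and matrix, pdi-2, a collagen-modifying enzyme subunit, had 143.1 and the syndecan gene sdn-1 had 83.6. The other 7, gpn-1, lam-2, let-2, lon-2, mec-5, pxn-2 and unc-6, were not bound. Among hedgehog-related and patched-related genes ptr-4 alone was bound, of 13 on the X, against 17 of 72 on the autosomes.

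Developmental timing genes and nuclear receptor genes on the X were also bound in larger shares than the 19.04% of all X genes. Of 8 X genes in the list of heterochronic and molting-cycle genes, 7 were bound, against 8 of 13 on the autosomes. This list also holds lin-15A and lin-15B, which the list of signalling genes below counts too. Its bound members daf-12 and nhr-25 are counted again among the bound nuclear receptor genes. The list of epidermal and endodermal transcription factors below also counts nhr-25. The DNA-binding protein gene peb-1 had a promoter signal of 143.4, lin-14, the timing gene that lin-4 represses, 106.9, hbl-1 71.1 and myrf-2 63.99. The chromatin gene lin-15B had 58.9, and daf-12 and nhr-25, nuclear receptors of the timing of development and of molting, had 49.6 and 41.1. The signal at daf-12 was 24.1 in replicate 1 and 25.7 in replicate 2, and 6 summits lay within this gene. Its summit, at 10664283, lay in an intron, 123 bp upstream of an internal transcript start, while the gene begins at 10635908. The unbound member was lin-15A, with a distal summit 4710 bp from its start at 114.6. Of 27 nuclear receptor genes on the X, 10 were bound (37.0%), against 51 of 248 on the autosomes (20.6%). The strongest were nhr-14 at 256.9, nhr-1 at 107.3, nhr-48 at 95.9 and nhr-91 at 94.997.

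The X genes that count X chromosomes or set sex and dosage compensation were bound in 2 of 6 cases, against 5 of 15 such genes on the autosomes. The gene sdc-2, whose product starts assembly of the dosage compensation complex on the X of hermaphrodites, had a summit 411 bp upstream with a pooled signal of 138.6, with 58.6 in replicate 1 and 78.8 in replicate 2. The summit 326 bp upstream of sdc-1 had 59.4. The X signal elements ceh-39, fox-1 and sex-1 and their target xol-1 had no summit in the promoter window. For xol-1, the summit nearest to the start was 3985 bp downstream at 37.5, and the strong peak with the core, described above, lay 4914 bp upstream.

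Most other groups were bound in smaller shares than all X genes, or close to it. Of 31 neuronal genes on the X only unc-115 was bound (78.5), and of 18 homeobox genes only ceh-21 (43.2). Chemoreceptor genes had 2 of 33, srv-7 (56.3) and srg-64 (46.5), and muscle genes 2 of 12, unc-97 (66.3) and act-4 (35.96). Among epidermal and endodermal transcription factor genes, 2 of 10 were bound, elt-3, a GATA factor of the epidermis (98.6), and nhr-25, while elt-2, elt-4, egl-13, lin-32, sox-2, sox-3, unc-3 and vab-3 were not. Signalling genes were higher at 4 of 11, with sma-9 at 88.8, the adaptor sem-5 at 65.0, lin-15B, and the FGF receptor gene egl-15 at 58.8. Of 9 yolk and intestinal genes only vit-2 was bound (37.8), near the lower end of the list, and asp-3, cpr-6, elt-2, pept-1, vit-1, vit-3, vit-4 and vit-5 were not. None of the 3 C-type lectin genes clec-86, clec-265 and clec-266 was bound. The list of germ line genes had 0 members on the X, and 2 of its 24 autosomal members were bound.

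Ribosomal protein genes, bound in 69 of 76 cases on the autosomes, number 2 on the X. Of these rpl-11.2 was bound, as described, and rpl-25.1 was not, with the nearest summit 3066 bp upstream at 148.9. Of 3 vacuolar ATPase genes, vha-12 had a promoter signal of 257.3, with 121.6 in replicate 1 and 129.9 in replicate 2, vha-15 had 88.0, and vha-20 was not bound.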

How the data were processed

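ChIP-seq of eGFP-tagged NHR-23 was analysed from the deposited peak lists: 1 per replicate, 1 from both replicates' alignments pooled, and the list thresholded by an irreproducible discovery rate (IDR), which equals the 4944 strongest pooled peaks. Per the deposited text files, the authors called peaks and background against a control. Aligner, peak caller and IDR threshold were not stated there or in the labels. The authors' signal is a value per peak. The deposited -log10 q-values are the same for all thresholded peaks and were not used. The lists give no read counts, so the depth is unknown. Coordinates are ce11 and 1-based. Genes are from Ensembl 115 on WBcel235 and sequences from RefSeq on the same assembly. Trans-splicing, frequent in this species, can shift an annotated start away from the true one.

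X peaks were selected by chromosome, and each motif was sought on either strand up to 50 bp from the summit. Peaks are not replicates and there is 1 group, so no p-value was computed. X values stand beside each autosome, exact Clopper-Pearson 95% intervals, and the 4944 strongest peaks of each replicate. A replicate's signal is that of the strongest peak in its list whose interval holds the pooled summit. The labels call the replicates biological and do not say more of their source. The X peaks, lists, motifs and rules were chosen with earlier results of these data known. Named genes are those nearest the 20 strongest distinct X intervals, all X members of lists with at most 10, up to 4 bound ones of longer lists, and genes at the longest gap and the densest 50 kb window. Genes of other printed sequences, genes at the second such window and the weaker peaks with the core motif were named after their values were seen. Alternatives were replicate lists, the stronger 50% of the list, the whole pooled list, distinct intervals, the ce10 list, other promoter windows and starts, peak midpoints and other motif widths. Python 3.11.15, numpy 2.4.6 and scipy 1.17.1 were used, and the functions were tested on simulated data.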

Additional observations from a re-analysis of the deposited data

How the results depend on the processing

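The cause of each shift below was not tested. Each replicate's own 4944 strongest peaks, which leave out the other replicate, gave X shares of peaks of 20.1% to 20.5%, X over autosome densities of 1.17 to 1.20, and X shares of summits of 52.8% to 54.8% in promoters, 13.8% to 13.98% in introns and 22.7% to 24.01% at distal sites. They gave X shares of 21.6% to 22% of the 250 strongest peaks, 18.3% to 19.2% of X genes bound, 1.71% to 1.78% of X summits with the core, 13.3% to 14.1% with the half-site, 14.7% to 15.2% of promoter summits with it, and 34.4% to 35.2% in the middle part of the X. In the stronger 50% of the list these values were 20.7% of peaks, a density ratio of 1.22, 58.2% in promoters, 13.7% in introns, 22.7% distal, 11.4% of genes bound, 2.54% with the core, 13.9% with the half-site and 16.8% of promoter summits with it. In the whole pooled list the X share was 17.02% and the density ratio 0.955, so the X was then below the autosomes. With promoters from 500 bp upstream the X had 35.97% of summits in promoters, 18.3% in introns, 35.6% distal, 13.5% of genes bound and 15.3% of promoter summits with the half-site. From 3000 bp upstream it had 67.8%, 10.6%, 15.9% and 24.2% of genes bound. With starts of all genes it had 74.7% in promoters, 9.62% in introns and 13.4% distal. Peak midpoints put 15.03% in introns, and assigning peaks to the nearest start gave 22.04% of genes bound. Distinct intervals gave an X share of 21.2% of the 250 strongest, and leaving out the 13 peaks with the core, chosen after seeing the data, gave 17.6%. Within 25 bp of the summit the core was at 1.10% of X summits, the half-site at 6.71% and, in promoters, at 7.68%; within 100 bp they were at 2.20%, 24.7% and 26.03%. Over whole intervals, also chosen after seeing the data, the core was at 2.20% and the half-site at 27.5% of X peaks. With 1 letter free the core was at 7.41% and in its 10-letter form at 0.802%. Of 157 alternatives over 24 values, the whole pooled list alone turned a direction round beyond the spread between replicates, in the density ratio. No paired analysis was possible because the 2 replicates form a single group with nothing to pair. Depth is unknown, so weak sites that no list holds cannot be called unbound.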
